A study of Homo sapiens with 6 samples.

Results

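Kinesins are motor proteins that turn ATP into steps along microtubules. Part of the family builds and divides the mitotic spindle and is made mainly in dividing cells. Another part walks vesicles, mitochondria and ciliary components through the cytoplasm at all times, and a smaller remainder works in cilia, in signalling or as regulators of microtubule growth. Proliferating cancer cells such as those of bladder tumours need the mitotic motors for each division, and inhibitors of several of them have been developed.

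The kinesin genes described here are every row of the expression table whose symbol is KIF or KIFC followed by a number and at most one letter from A to C. That pattern took 42 of the 63241 genes. They were divided by textbook function into 15 mitotic kinesins, 15 cargo kinesins and 12 others. The classes were drawn up with earlier results of these data known, so their counts are descriptions. CENPE, STARD9 and KIF28P, which are kinesins with other kinds of name, lie outside the pattern.

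RNA was sequenced from T24, an established human bladder cancer cell line, 3 libraries after transfection with small interfering RNA against USP43 (siUSP43) and 3 after a control small interfering RNA (siNC). USP43 encodes a deubiquitinating enzyme, and the series asks how it bears on lipid metabolism. The siUSP43 cells are labelled a USP43 knockdown and the siNC cells wild type, both in the same line and the same labelled batch. The labels give neither the time after transfection nor a duplex sequence, and they do not say whether the numbered samples were separate cultures. The p-values therefore measure only how these samples spread, and that spread may be technical. Everything below was measured in this single line.

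Summed gene counts ran from 21430574 to 25577200 per library. USP43 stood at 1.02, 0.67 and 0.80 FPKM in the siUSP43 libraries, against 2.36, 2.09 and 2.08 FPKM in the siNC libraries, a log2 fold change of -1.40 (SE 0.14, edgeR, Benjamini-Hochberg adjusted p = 5.63e-06). FPKM is a read count scaled to exonic size and library total, so levels of different genes can be set side by side in it, though only roughly. The exonic size used was 33151 bases for KIF5C and 4447 for KIFC2. KIF5C, with 245 to 586 counts per library, thus lay under 1 FPKM, while KIFC2, with 257 to 498, lay above it. The cells expressed the epithelial keratins KRT18 (216 ± 20.8 FPKM in siUSP43, 198 ± 7.82 FPKM in siNC, SD, n = 3 each) and KRT7 (184 ± 9.01 FPKM in siUSP43, 236 ± 3.97 FPKM in siNC), together with the mesenchymal filament gene VIM, at 391.9 to 436.91 FPKM in siUSP43 and 430.47 to 451.39 FPKM in siNC. The basal keratin KRT5 was at 0 in all 6 libraries, and the epithelial cadherin CDH1 averaged 0 FPKM in siUSP43 and 0.01 FPKM in siNC. Of 15 epithelial and urothelial markers 6 were tested, of which 1 rose (16.7%), 3 fell (50%) and 2 did not pass. Over all 11417 tested genes 28.0% rose and 28.1% fell, and 6 markers are few to set beside those shares. The luminal factor FOXA1 averaged 2.85 FPKM in siUSP43 and 6.67 FPKM in siNC (log2 fold change -1.24), KRT19 was at -0.38 and KRT7 at -0.38, and PPARG was at 0.50 (edgeR, adjusted p from 2.42e-07 to 4.29e-04). The 3 mesenchymal genes on the list, VIM among them, did not pass. The urothelial differentiation genes UPK1A, UPK1B, UPK2 and UPK3A averaged at most 0.113 FPKM in either group. The 12 markers of immune, endothelial, fibroblast and neuronal cells were each below 1 FPKM in the mean of both groups.

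The promoters of these genes differed by class. Genes that peak in G2 and M phase often carry a cell cycle homology region (CHR, core TTTGAA or TTCGAA) close to the start of transcription, with CCAAT boxes a few turns of the helix upstream. RefSeq promoter windows of 300 bases, from 250 before to 50 after the start, were available for 34 members (GRCh38.p14). The following stretches run from 80 bases before the start to 20 bases from it on, on the strand of the gene, with CHR cores and CCAAT cores in capitals in either orientation. They are shown because the 6 mitotic genes hold both cores within a short distance, whereas the 2 cargo genes, those with the largest rise and the largest fall among the tested cargo kinesins, hold no CHR core. They lie at chrX:70290024-70290123 plus strand (KIF4A), chr10:92593050-92593149 plus (KIF11), chr11:28108137-28108236 minus (KIF18A), chr16:29790671-29790770 plus (KIF22), chr17:44947754-44947853 minus (KIF18B), chr6:33391743-33391842 plus (KIFC1), chr17:4997870-4997969 plus (KIF1C) and chr20:32277571-32277670 plus (KIF3B).
KIF4A: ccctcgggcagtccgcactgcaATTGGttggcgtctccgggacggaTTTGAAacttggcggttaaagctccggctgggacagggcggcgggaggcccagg
KIF11: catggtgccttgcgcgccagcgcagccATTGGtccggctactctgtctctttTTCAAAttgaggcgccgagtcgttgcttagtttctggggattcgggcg
KIF18A: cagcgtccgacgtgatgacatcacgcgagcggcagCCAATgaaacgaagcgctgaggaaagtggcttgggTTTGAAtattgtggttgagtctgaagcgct
KIF22: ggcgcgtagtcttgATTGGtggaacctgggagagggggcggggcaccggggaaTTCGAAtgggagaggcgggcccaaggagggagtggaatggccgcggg
KIF18B: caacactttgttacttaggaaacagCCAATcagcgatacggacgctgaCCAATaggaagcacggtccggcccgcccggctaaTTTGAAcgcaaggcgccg
KIFC1: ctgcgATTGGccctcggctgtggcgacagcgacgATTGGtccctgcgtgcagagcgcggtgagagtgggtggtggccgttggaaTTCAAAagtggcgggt
KIF1C: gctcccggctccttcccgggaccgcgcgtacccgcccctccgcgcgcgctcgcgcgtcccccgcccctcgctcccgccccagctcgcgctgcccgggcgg
KIF3B: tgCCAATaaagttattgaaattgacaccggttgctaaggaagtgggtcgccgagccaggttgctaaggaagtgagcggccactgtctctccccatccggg

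A CHR core was present in the windows of 11 of 15 mitotic kinesins, 1 of 11 cargo kinesins and 1 of 8 others. Only 8 of the tested cargo kinesins had a window, and the called members KIF13B, KIFC2 and KIFC3 had none. Both orientations were searched, and TTCGAA reads the same in either. Over all 35116 promoter windows of this length 16.4% held a CHR core, and 15.1% of the 8587 tested genes with a window did. A CCAAT core was present in 11 of the 15 mitotic kinesins and in 43.9% of tested genes. Both cores stood in the windows of 10 mitotic kinesins (66.7%), against 6.59% of tested genes. The nearest CCAAT core upstream of the CHR core began 23 to 39 bases before it in KIF14, KIF4A, KIF4B, KIF11, KIF18A, KIF18B and KIF22, 50 bases before it in KIFC1, 9 in KIF23 and 122 in KIF20B. Any of 4 forms of the E2F core (TTCCCGC or TTCGCGC or TTGGCGC or TTGCCGC) was in 4 of 15 mitotic kinesins, at a share of 26.7% that lay close to the 26.3% of tested genes. These matches describe letters and not sites. KIF2A, KIF2C and KIF20A were the tested mitotic kinesins without a CHR core in the window, and 7 members had more than 1 window, of which any could hold the core.

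**Figure D1:**
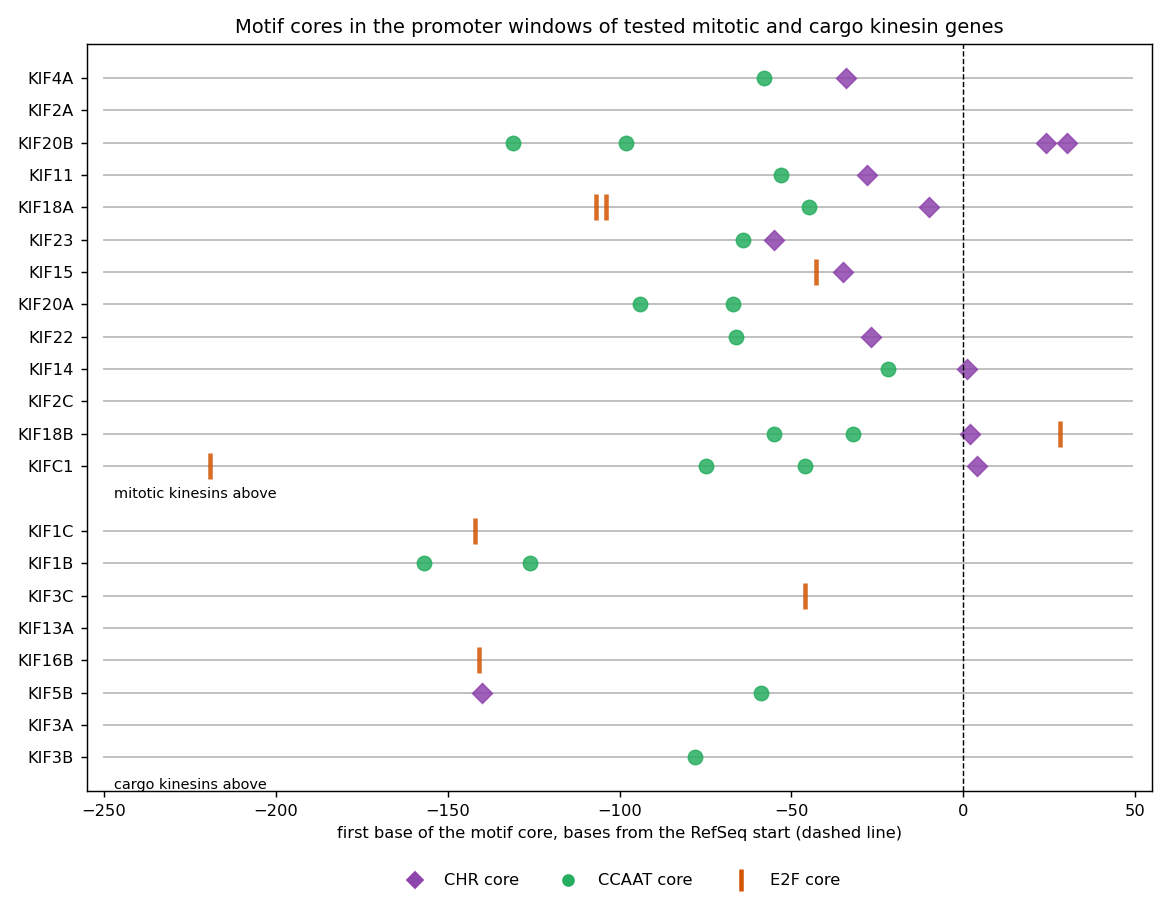
Position of the motif cores in RefSeq promoter windows, in bases from the start of transcription. Drawn are the 13 tested mitotic kinesin genes and the 8 of 11 tested cargo kinesin genes that had a window. For a gene with several windows, the one with most cores is drawn. Diamonds mark CHR cores, circles CCAAT cores and bars E2F cores. CHR cores lie near the start in 10 mitotic genes and in 1 cargo gene, KIF5B, where the core lies farther upstream.

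By summed FPKM the mitotic kinesins were the more abundant class. Their summed level was 300.31, 298.04 and 322.38 FPKM in the siUSP43 libraries, against 280.59, 274.03 and 269.87 FPKM in the siNC libraries. The cargo kinesins summed to 100.03, 94.83 and 106.78 FPKM in siUSP43 and to 90.84, 91.82 and 85.33 FPKM in siNC. Both sums were higher in each siUSP43 library than in any siNC library, and the ratio of mitotic to cargo FPKM, 3.05 ± 0.0768 in siUSP43 and 3.08 ± 0.0896 in siNC (SD, n = 3 each), differed by less than the spread between libraries. The cargo sum averaged 100.5 FPKM in siUSP43 and 89.3 FPKM in siNC. KIF1C alone averaged 30.31 FPKM in siUSP43 and 18.28 FPKM in siNC, a wider gap. The higher cargo sum thus rests on KIF1C, and the other cargo kinesins together did not average higher in siUSP43. KIF11, the motor that pushes spindle poles apart, had the highest level of any kinesin in both groups.

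Of the 42 kinesin genes, 27 reached a mean of 1 FPKM over the 6 libraries and entered the test: 13 mitotic, 11 cargo and 3 other. Among these 27, 13 rose, 5 fell and 9 did not pass (edgeR quasi-likelihood test over 11417 genes, Benjamini-Hochberg adjusted p under 0.05). The share that changed, 66.7%, stands beside 56.1% of all tested genes. For increases it was 48.1% beside 28.0%, and for decreases 18.5% beside 28.1%. The FPKM values of the groups did not overlap for 20 of the 27 members (74.1%), beside 62.2% of all tested genes. The median log2 fold change was 0.13 over the tested kinesins, against -0.0078 over all tested genes. In a mixed population of cells, a larger share of cells in G2 or M phase cannot be told apart from more RNA per cell.

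**Figure D2:**
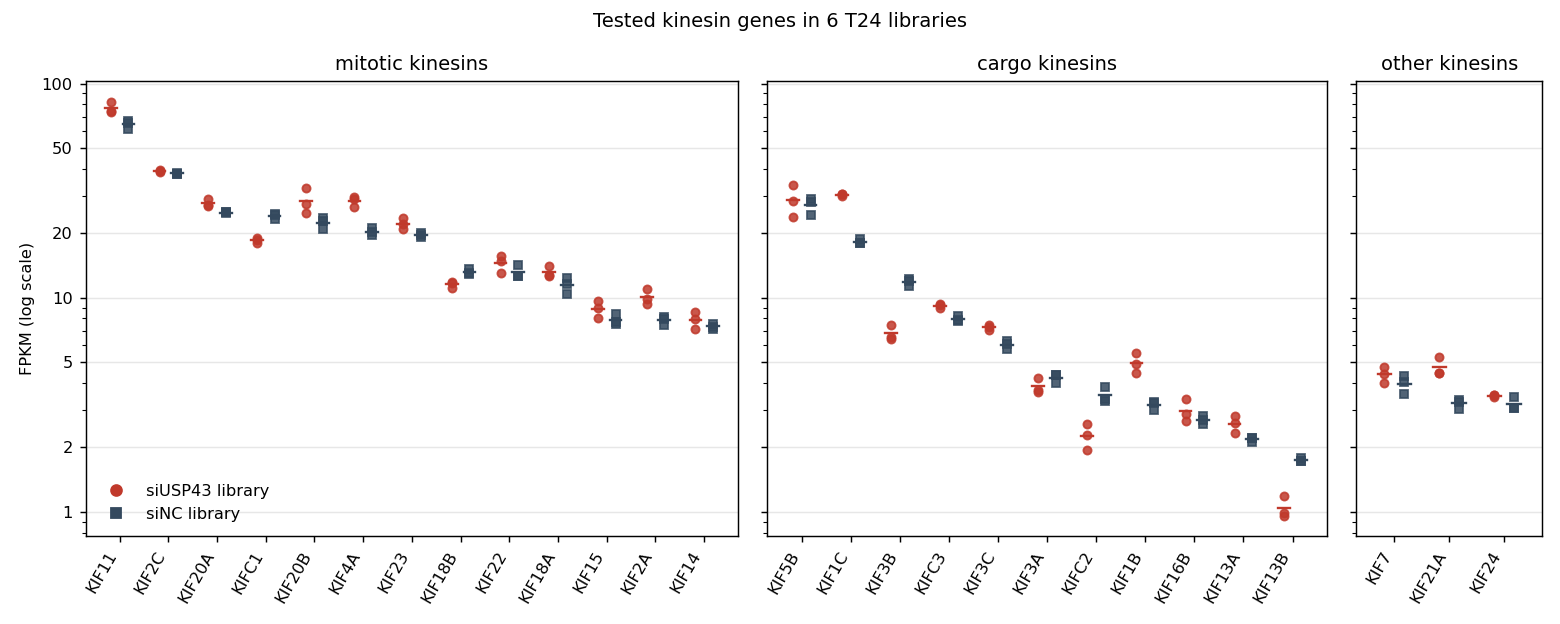
FPKM (log scale) of the 27 tested kinesin genes in each library, by class and ordered by the siNC mean. Circles are siUSP43 libraries, squares siNC libraries, and short lines the group means; KIF11 stands highest at 73.78 to 82.21 FPKM in siUSP43 and 61.43 to 66.64 FPKM in siNC.

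Most mitotic kinesins that changed rose, by small amounts, while a pair of them fell. Of 13 tested, 7 rose (53.8%, beside 28.0% of all tested genes), 2 fell (15.4%, beside 28.1%) and 4 did not pass, with log2 fold changes from -0.39 to 0.46 and a median of 0.16. The absolute median, 0.18, lay under the 0.24 of all tested genes. KIF4A, KIF2A, KIF20B and KIF11 remained past the threshold under each of 14 alternative settings, while the increases of KIF18A, KIF23 and KIF20A did not. Without siNC replicate 2 the number of mitotic kinesins that rose was 4. Over all 11417 tested genes the number that rose was then 2718, against 3198 with all libraries.

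The largest mitotic increase was in KIF4A, a chromokinesin that with PRC1 sets the length of overlapping microtubules in the central spindle (ENSG00000090889, GRCh38 chromosome X, 70290104 to 70420886, plus strand). KIF4A had 26.42, 28.87 and 29.55 FPKM in siUSP43, against 21.09, 19.62 and 20.16 FPKM in siNC. The groups were well apart, with a log2 fold change of 0.46 (SE 0.055, edgeR, adjusted p = 2.44e-05). KIF4B, its intronless copy on chromosome 5, had 6 to 10 counts per library, and reads of such close copies may have been divided between them. KIF11 (ENSG00000138160, chromosome 10, 92574105 to 92655395, plus strand) had 74.80, 73.78 and 82.21 FPKM in siUSP43, against 66.64, 65.69 and 61.43 FPKM in siNC, a log2 fold change of 0.24 (SE 0.051, edgeR, adjusted p = 0.00206). KIF15, which can take over from KIF11 in keeping the spindle bipolar, had 8.03, 8.96 and 9.65 FPKM in siUSP43, against 8.38, 7.56 and 7.68 FPKM in siNC. Its groups overlapped, and the log2 fold change of 0.16 (95% interval -0.0078 to 0.32) did not pass. It was 0.23 and passed without siUSP43 replicate 1 (edgeR, adjusted p = 0.029), and was 0.091 without siUSP43 replicate 3.

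Other motors of the central spindle and of cytokinesis rose or did not pass. KIF20B, which acts in the final cut between daughter cells, had 27.32, 24.76 and 32.60 FPKM in siUSP43, against 23.63, 22.74 and 20.89 FPKM in siNC (log2 fold change 0.32, SE 0.084, edgeR, adjusted p = 0.00702). The spread within siUSP43 was wide, and leaving out siUSP43 replicate 3 brought the value to 0.20, still past the threshold. KIF23, the motor of the centralspindlin complex, had 22.07, 20.98 and 23.54 FPKM in siUSP43, against 19.66, 19.29 and 20.02 FPKM in siNC (log2 fold change 0.16, adjusted p = 0.0187, edgeR). KIF20A, which brings the chromosomal passenger complex to the central spindle, had 27.12, 26.84 and 28.78 FPKM in siUSP43, against 25.03, 24.82 and 25.07 FPKM in siNC (log2 fold change 0.13, adjusted p = 0.0357, edgeR). Both increases were near the threshold, that of KIF23 ending without siNC replicate 1 or 2 and that of KIF20A without any one of siNC replicates 1 to 3 or siUSP43 replicates 1 and 3. KIF14, a partner of citron kinase in the midbody, had a log2 fold change of 0.092 (95% interval -0.052 to 0.24) with overlapping groups. It was 0.15 and passed without siUSP43 replicate 2 (edgeR, adjusted p = 0.0449), and was 0.029 without siUSP43 replicate 3.

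The depolymerising kinesins went separate ways. KIF2A, which shortens microtubules at spindle poles and also acts outside mitosis (ENSG00000068796, chromosome 5, 62306162 to 62391025, plus strand), had 9.86, 9.30 and 11.02 FPKM in siUSP43, against 7.96, 8.13 and 7.45 FPKM in siNC. It rose by a log2 fold change of 0.34 (SE 0.062, edgeR, adjusted p = 6.11e-04), and 8.97% of its exonic bases (428 bases) are shared with IPO11 on the same strand in the GENCODE annotation. The deposited exonic size of KIF2A was 13050 bases, from a larger gene model. How much of the counted model is shared with IPO11 is therefore not known. KIF2C, the related depolymerase of centromeres, was among the steadiest members, at 38.65, 38.98 and 39.54 FPKM in siUSP43 and 38.34, 37.80 and 37.90 FPKM in siNC (log2 fold change 0.022, 95% interval -0.069 to 0.11). KIF18A, which damps the movements of aligned chromosomes, had 12.70, 12.62 and 14.04 FPKM in siUSP43, against 12.35, 11.56 and 10.38 FPKM in siNC. Its log2 fold change of 0.18 (SE 0.070, edgeR, adjusted p = 0.0415) ended under 8 of the 14 alternatives, among them the leaving out of siNC replicate 2 or 3 or of siUSP43 replicate 1 or 3. KIF22, a chromokinesin that pushes chromosome arms outward, had a log2 fold change of 0.13 (95% interval -0.035 to 0.29) with overlapping groups, and passed only without siNC replicate 3 or without siUSP43 replicate 3.

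KIFC1 and KIF18B were the mitotic kinesins that fell. KIFC1, a minus-end motor that gathers spindle poles and clusters extra centrosomes (ENSG00000237649, chromosome 6, 33391823 to 33409896, plus strand), had 18.53, 19.04 and 18.03 FPKM in siUSP43, against 24.32, 23.30 and 24.47 FPKM in siNC. The groups lay far apart relative to their spread, with a log2 fold change of -0.39 (SE 0.051, edgeR, adjusted p = 5.16e-05). KIF18B, which works with KIF2C on astral microtubules (ENSG00000186185, chromosome 17, 44924709 to 44947773, minus strand), had 11.87, 11.07 and 11.71 FPKM in siUSP43, against 12.99, 13.62 and 12.94 FPKM in siNC. Each siUSP43 value was below each siNC value, and the log2 fold change was -0.21 (SE 0.052, edgeR, adjusted p = 0.00507). Both decreases remained past the threshold under all 14 alternatives. Both promoters hold CHR and CCAAT cores, as printed above: of the 10 tested mitotic kinesins with a CHR core 5 rose, 2 fell and 3 did not pass, and of the 3 without it 2 rose and 1 did not pass.

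**Figure D3:**
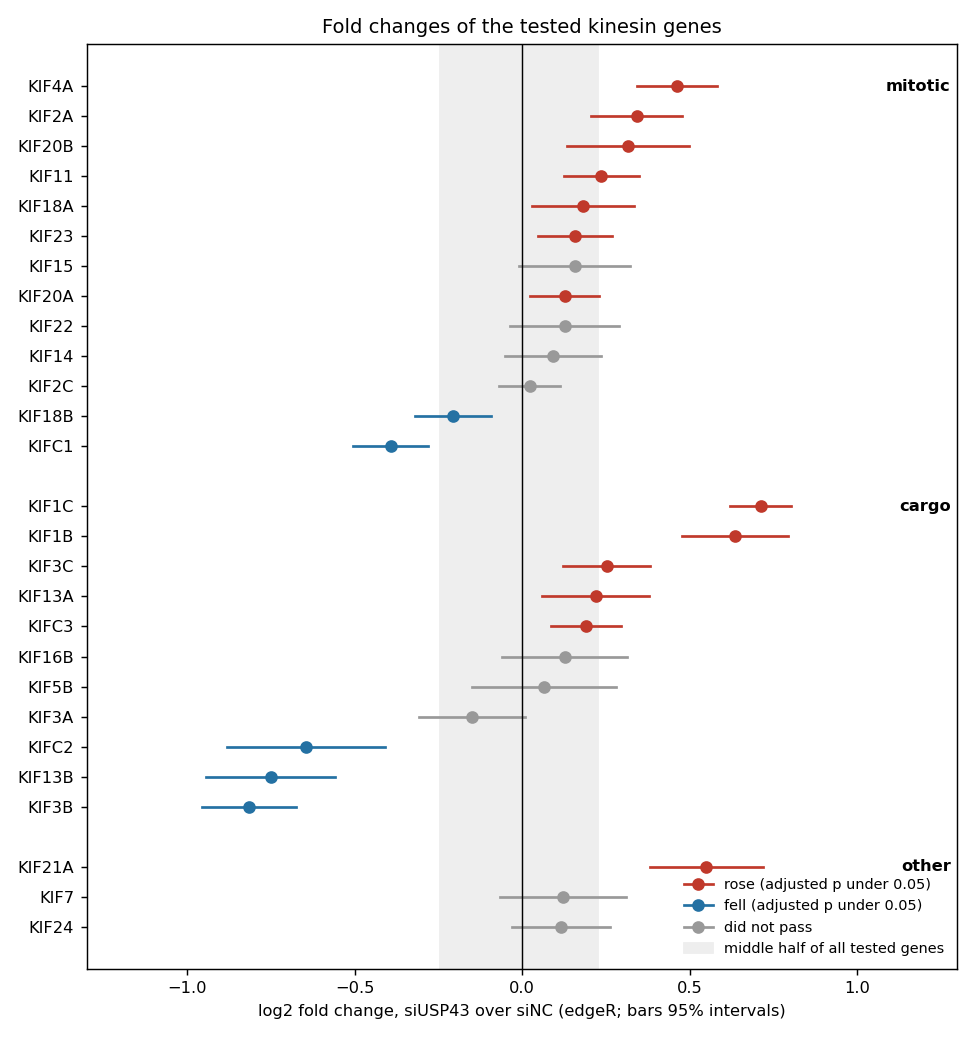
Log2 fold change, siUSP43 over siNC, of the 27 tested kinesin genes by class, with 95% intervals from the edgeR fit. Red members rose, blue members fell and grey members did not pass; the grey band spans the middle 50% of all tested genes (-0.25 to 0.23). The widest changes in both directions are in cargo kinesins, KIF1C at 0.71 and KIF3B at -0.82.

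The cargo kinesins changed in both directions. Of 11 tested, 5 rose (45.5%, beside 28.0% of all tested genes), 3 fell (27.3%, beside 28.1%) and 3 did not pass. Their log2 fold changes ran from -0.82 to 0.71 with a median of 0.13. The absolute median of 0.25 was close to the 0.24 of all tested genes, and the share that fell was at the background. Without siUSP43 replicate 3 the median was 0.024 and 4 fell, KIF3A having joined them. In that refit 3275 of all 11417 tested genes fell.

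KIF1C and KIF1B, sister motors of the kinesin-3 family, had the largest increases among the 27 tested kinesins. KIF1C, which carries dense secretory and integrin vesicles and some messenger RNAs (ENSG00000129250, chromosome 17, 4997950 to 5028401, plus strand), had 30.40, 30.61 and 29.92 FPKM in siUSP43, against 18.06, 18.74 and 18.03 FPKM in siNC. With a log2 fold change of 0.71 (SE 0.042, edgeR, adjusted p = 9.76e-08) and 4428 to 7789 counts per library, this was the most precisely measured change among the cargo kinesins. KIF1B, a carrier of mitochondria and vesicle precursors (ENSG00000054523, chromosome 1, 10210570 to 10381603, plus strand), had 4.89, 4.47 and 5.54 FPKM in siUSP43, against 3.24, 3.25 and 3.00 FPKM in siNC, a log2 fold change of 0.64 (SE 0.072, edgeR, adjusted p = 1.68e-05). Of the other kinesin-3 motors among the tested cargo kinesins, KIF13A rose less, KIF16B did not pass and KIF13B fell, at -0.75. KIF13A, an endosomal motor, had 2.34, 2.59 and 2.79 FPKM in siUSP43, against 2.21, 2.21 and 2.13 FPKM in siNC. Its log2 fold change of 0.22 (edgeR, adjusted p = 0.0225) ended under 6 of 13 alternatives, including without any one of siNC replicates 1 to 3 or without siUSP43 replicate 3. KIF16B, a motor of early endosomes, had a log2 fold change of 0.13 (95% interval -0.060 to 0.31), and of 0.024 without siUSP43 replicate 3.

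KIF3B had the largest decrease of any tested kinesin. With KIF3A and the non-motor subunit KIFAP3 it forms heterotrimeric kinesin-2, the motor of anterograde transport in cilia. KIF3B (ENSG00000101350, chromosome 20, 32277651 to 32335011, plus strand) had 6.55, 6.43 and 7.46 FPKM in siUSP43, against 12.03, 12.23 and 11.35 FPKM in siNC, a log2 fold change of -0.82 (SE 0.064, edgeR, adjusted p = 9.61e-07). KIF3A had 3.64, 3.72 and 4.22 FPKM in siUSP43, against 4.37, 4.36 and 3.98 FPKM in siNC, and its log2 fold change of -0.15 (95% interval -0.31 to 0.0085) did not pass. KIF3C, an alternative partner of KIF3A, had 7.42, 7.08 and 7.28 FPKM in siUSP43, against 5.74, 6.05 and 6.27 FPKM in siNC, a log2 fold change of 0.25 (SE 0.059, edgeR, adjusted p = 0.00339). KIF3C stood at 1.07 ± 0.083 times the FPKM of KIF3B in siUSP43, against 0.508 ± 0.0394 times in siNC (SD, n = 3 each). It was above KIF3B in siUSP43 replicates 1 and 2 and below it in siUSP43 replicate 3 and in all siNC libraries. KIF3B stood at 1.77 ± 0.0355 times KIF3A in siUSP43, against 2.80 ± 0.0495 times in siNC. KIFAP3, named here for its place in the complex, had 6.36, 6.16 and 6.06 FPKM in siUSP43, against 5.36, 5.46 and 4.99 FPKM in siNC, a log2 fold change of 0.22 (edgeR, adjusted p = 0.00957).

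**Figure D4:**
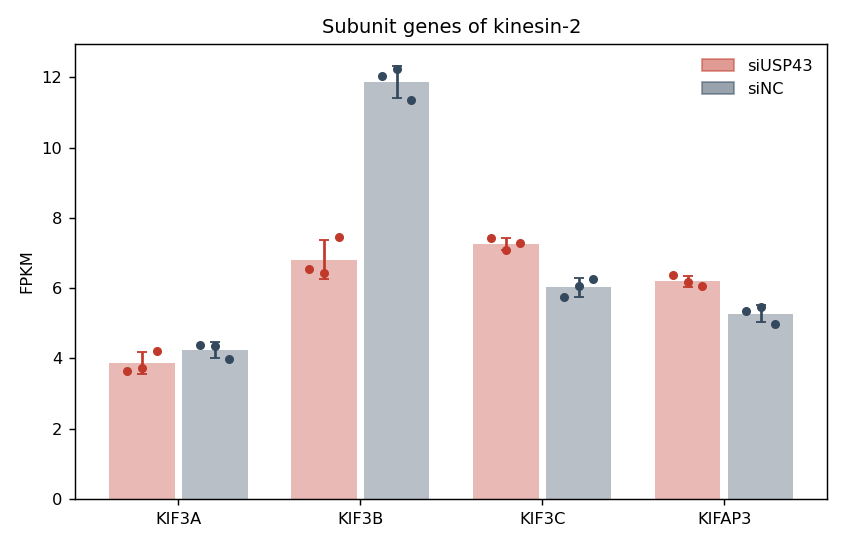
FPKM of the 4 subunit genes of kinesin-2 in siUSP43 and siNC. Bars are group means, whiskers SD (n = 3 each) and points libraries; the KIF3B points lie at 6.43 to 7.46 FPKM in siUSP43 and 11.35 to 12.23 FPKM in siNC.

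KIF5B, the ubiquitous heavy chain of conventional kinesin, was the most abundant cargo kinesin in siNC and did not pass. It had 28.34, 23.92 and 33.43 FPKM in siUSP43, against 28.75, 27.87 and 24.45 FPKM in siNC. The siUSP43 values spanned the siNC values, the log2 fold change was 0.065 (95% interval -0.15 to 0.28), and without siUSP43 replicate 3 its sign turned (-0.063). With KIF1C higher and KIF5B widely spread, KIF1C stood at 1.08 ± 0.193 times the FPKM of KIF5B in siUSP43, against 0.679 ± 0.055 times in siNC (SD, n = 3 each).

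The minus-end cargo motors and KIF13B completed the class. KIFC3, which anchors microtubule minus ends at cell junctions, had 9.23, 9.33 and 8.97 FPKM in siUSP43, against 7.83, 8.24 and 7.76 FPKM in siNC, a log2 fold change of 0.19 (SE 0.048, edgeR, adjusted p = 0.00481). KIFC2, known mainly from neurons (chromosome 8, 144466043 to 144474202, plus strand), had 2.57, 2.29 and 1.94 FPKM in siUSP43, against 3.30, 3.84 and 3.37 FPKM in siNC, a log2 fold change of -0.65 (SE 0.11, edgeR, adjusted p = 3.40e-04). KIF13B, a kinesin-3 motor that binds the scaffold DLG1 (chromosome 8, 29067278 to 29263124, minus strand), had 0.99, 0.96 and 1.18 FPKM in siUSP43, against 1.78, 1.72 and 1.72 FPKM in siNC, a log2 fold change of -0.75 (SE 0.088, edgeR, adjusted p = 2.17e-05). Neither decrease had overlapping groups, and both remained past the threshold under each of 13 alternatives. On the log2(FPKM + 1) scale of limma, which understates the change of low genes, KIF13B was at -0.42 and KIFC2 at -0.47.

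Among the other kinesins KIF21A, which slows microtubule growth at the cell edge, rose. It had 4.46, 4.47 and 5.31 FPKM in siUSP43, against 3.26, 3.33 and 3.03 FPKM in siNC, a log2 fold change of 0.55 (SE 0.077, edgeR, adjusted p = 8.75e-05). KIF7, a regulator of Hedgehog signalling at the ciliary tip, and KIF24, which restrains cilium formation, had log2 fold changes of 0.12 each (95% intervals -0.065 to 0.31 and -0.030 to 0.26) and did not pass. In the annotation 11.8% of the exonic bases of KIF7 overlap TICRR on the opposite strand. Whether the counting used strand is not stated.

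The 15 kinesins under 1 FPKM had no test in the main comparison. Of these, 7 averaged at least 10 counts per library, and the groups of 5 did not overlap. The FPKM values of the groups did not overlap for 62.2% of the 11417 tested genes. That share was not computed for genes at this low level. KIF17, a motor of neuronal and ciliary cargo, had 66, 49 and 47 counts in siUSP43, against 13, 13 and 20 counts in siNC. KIF9, known from motile cilia, had 108, 92 and 91 counts in siUSP43, against 45, 49 and 48 counts in siNC. Both were thus higher in every siUSP43 library. KIF21B, the neuronal relative of KIF21A, had 106, 77 and 99 counts in siUSP43, against 185, 201 and 201 counts in siNC. KIF5C, a neuronal conventional kinesin, had 284, 245 and 324 counts in siUSP43, against 586, 502 and 512 counts in siNC. KIF27, another ciliary kinesin, had 118, 87 and 125 counts in siUSP43, against 164, 163 and 151 counts in siNC. These 3 were lower in every siUSP43 library. In the fit without a filter, over 33934 genes, the log2 fold changes were 1.83 for KIF17, 1.06 for KIF9, -1.04 for KIF21B, -0.89 for KIF5C and -0.52 for KIF27. Each was past the threshold (edgeR, adjusted p from 2.76e-19 to 0.00204), and 3837 of all genes in that fit rose and 4070 fell. Its p-values cannot be set beside those of the main fit. The adjusted p of USP43 was 6.43e-28 without the filter and 5.63e-06 in the main fit (edgeR). KIF12 and KIF6 had overlapping groups. The remaining 8, KIF1A, KIF2B, KIF4B, KIF5A, KIF19, KIF25, KIF26A and KIF26B, averaged at most 0.07 FPKM in either group.

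**Figure D5:**
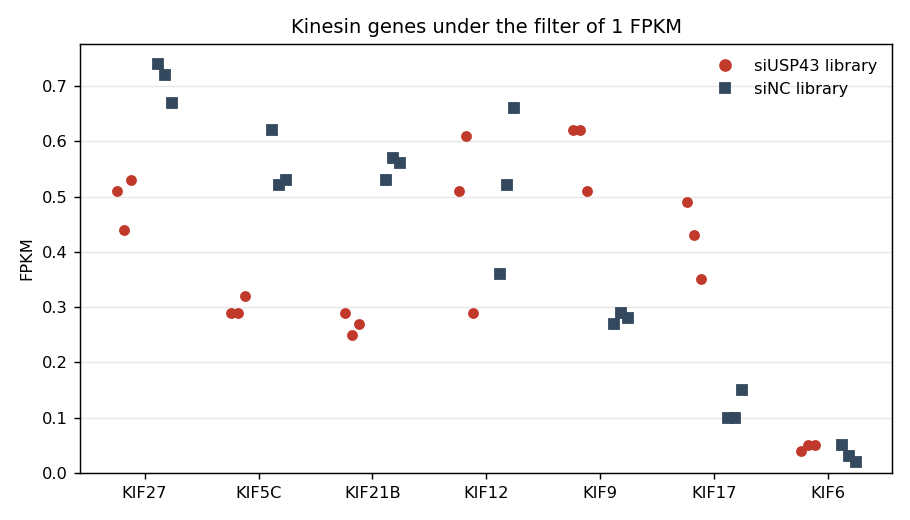
FPKM per library of the 7 kinesin genes that averaged at least 10 counts but under 1 FPKM. Circles are siUSP43 libraries and squares siNC libraries; KIF17 and KIF9 lie higher in siUSP43, KIF27, KIF5C and KIF21B lower, and KIF12 and KIF6 overlap.

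Library siUSP43 replicate 3 gave the highest of the 3 siUSP43 values for 18 of the 27 tested kinesins (66.7%), where it did so for 39.9% of all tested genes. Leaving it out gave 6 mitotic kinesins that rose and 2 that fell, and 4 cargo kinesins in each direction. Of all 11417 tested genes 3273 rose and 3275 fell in that refit, against 3198 and 3211 with all libraries. The 7-mers GGATCCA or GATCCAA had been picked in an earlier analysis of these same fold changes, so their counts here are no separate support. They were in at least one GENCODE transcript's 3' UTR of 4 of the 5 kinesins that fell (KIF3B, KIF13B, KIFC1 and KIFC2), 2 of the 13 that rose (KIF1B and KIFC3) and 2 of the 9 that did not pass (KIF15 and KIF16B). Over all tested genes the shares were 22.9% of those that fell, 12.9% of those that rose and 13.9% of those that did not pass. Their part in the decreases was not tested.

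Most genes on a list of protein partners of the mitotic kinesins rose. The list also holds mitotic genes that are not known for binding a kinesin, such as ESPL1. Of 28 tested, 19 rose (67.9%, beside 28.0% of all tested genes), 1 fell (3.57%, beside 28.1%: CDCA8, a passenger complex subunit, at -0.37) and 8 did not pass, with a median log2 fold change of 0.25. HMMR, a spindle assembly factor, had the largest change at 1.04 (49.97 ± 4.08 FPKM in siUSP43 and 24.1 ± 1.29 FPKM in siNC, SD, n = 3 each), followed by BIRC5 at 0.80, MAPRE1 at 0.67 and ESPL1 at 0.61. Partners named for the motor they bind included TPX2, which binds KIF11 and KIF15, at 0.58, RACGAP1, the partner of KIF23, at 0.47, PRC1, that of KIF4A, at 0.45 and CIT, that of KIF14, at 0.15. Each of these 4 passed the test (edgeR, adjusted p from 1.19e-06 to 0.0305). The 8 of the 28 that did not pass were AURKA, AURKB, PLK1, CDK1, CCNB1, FAM83D, NUSAP1 and PSRC1. Their log2 fold changes ran from -0.066 (CCNB1) to 0.24 (NUSAP1). CENPE, the kinetochore kinesin outside the symbol pattern, rose by a log2 fold change of 0.27 (edgeR, adjusted p = 0.00413).

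For the lists that follow, the shares of all tested genes were 28.0% that rose and 28.1% that fell. Of 18 tested genes on a list of regulators of G2 and M phase transcription 10 rose (55.6%) and 5 fell (27.8%, at the background). The list also holds genes that are not such regulators, CENPF and MKI67, which rose, and TOP2A, which fell. MYBL2, which encodes B-Myb, had the largest increase at 0.84, and TFDP1 and RBL1 followed at 0.76 and 0.75. E2F5 had the largest decrease at -0.88, and FOXM1 also fell, at -0.15 (edgeR, adjusted p = 0.0136). E2F1, named in the study's title, had 18.71, 19.32 and 15.92 FPKM in siUSP43, against 12.85, 12.94 and 12.4 FPKM in siNC, a log2 fold change of 0.48 (edgeR, adjusted p = 2.05e-04). Of 19 tested genes on a list of light chains, subunits and cargo adaptors 8 rose (42.1%) and 5 fell (26.3%, near the background), with a median of 0.10. The list also holds MLPH, which is not known as a kinesin adaptor. MLPH was at -0.61, RHOT2, a mitochondrial anchor of kinesin adaptors, at -0.46, MAPK8IP1 at -0.39 and KLC1, a light chain of conventional kinesin, at 0.34. Of 27 tested genes of cytoplasmic dynein and dynactin, the motor of opposite direction, 12 rose (44.4%) and 6 fell (22.2%), with a median of 0.15. BICD2, a dynein adaptor, was at 1.35, PAFAH1B1 at 0.63, DYNLRB1 at 0.42 and CAPZA1, a capping subunit of dynactin and actin, at -0.91. Of 15 tested tubulin genes 7 rose (46.7%) and 4 fell (26.7%, near the background), with TUBG2 at -0.87, TUBA1C at 0.49, TUBB2B at 0.45 and TUBB4A at -0.42, and reads of these close paralogs may have been divided between them.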

How the data were processed

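Raw counts per gene and FPKM values for 6 libraries were deposited by the authors in a single table, per the file headers. Per the submitters' processing notes, the tools were cutadapt 2.6 and HISAT2 2.2.1 and the build GRCh38. Not given in the sources used here are the read counter, the annotation release, whether strand was used, and how reads with several matches were treated.

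Counts were tested with edgeR 4.0.16 in R 4.3.3 (quasi-likelihood fit, TMM scaling on totals of all genes, group as the only term) over the 11417 genes with a mean of at least 1 FPKM, USP43 being kept at any level. Fold changes are siUSP43 over siNC, calls are two-sided at a Benjamini-Hochberg adjusted p under 0.05, and SE is the log2 fold change over the square root of F. The procedure was run on simulated counts with 200 changed genes in each of 5 draws. In the data 56.1% of tested genes were called, a far larger share, so that run does not give the error rate here. Within groups, chi-square per degree of freedom between libraries ran from 2.28 to 14.9, so no library repeats another. An exact two-sided permutation test of USP43 gave p = 0.1, the lowest that this design can give.

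Members, classes, lists and the naming rule were chosen with earlier results of these data known. The rule took USP43, all members, and at most 4 called genes of each other list, those with the largest changes, and other partners were named for their binding to a member. KRT18, VIM, KRT5, CDH1, the uroplakins, CDCA8 and E2F1 were named outside it after their values were seen. They served as checks of the cell label, as the only gene of the partner list that fell or for the study's title. Also named outside it, after their values were seen, were the genes of the partner list that did not pass and FOXM1, CENPF, MKI67 and TOP2A. Exon overlap and 3' UTRs came from GENCODE release 29, which matched 98.4% of tested genes and all 27 tested members, with 3' UTRs of at least 50 bases. Alternatives were RLE factors, library totals, DESeq2 1.42.0, limma 3.58.1 on log2(FPKM + 1) and log2(FPKM + 0.1), no filter, a filter of 5 FPKM, a replicate block, each library left out, and KIF2A exchanged with KIF24 between classes.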

Additional observations from a re-analysis of the deposited data

How the results depend on the processing

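Over 369 refitted values of the 27 tested kinesins, 339 kept direction and side of the threshold, 24 lost a call, 5 gained one and 1 reversed (KIF5B, -0.063 without siUSP43 replicate 3 and 0.18 without siUSP43 replicate 2). For 18 of the 27 no alternative changed the call. With the filter at 5 FPKM fewer cargo and other kinesins were tested, 3 cargo kinesins rose, 1 fell and 0 others rose. Of the 6246 genes tested with that filter 1889 rose and 1892 fell. With no filter 2 others rose and 2 fell, while of 33934 genes 3837 rose and 4070 fell. With KIF2A counted among the others, 2 of those rose. Without a library at a time, mitotic kinesins that rose numbered 4 to 8, cargo kinesins that rose 4 to 5 and those that fell 3 to 4. Over all tested genes those refits gave 2718 to 3273 that rose and 2710 to 3275 that fell. With the replicate block 4 mitotic kinesins rose, and over all tested genes 2775 rose and 2841 fell, against 3198 and 3211 without it. The same-numbered libraries did not deviate together (correlations -0.0086, -0.11 and -0.24), and no library correlated best with its own number, so the numbers were not taken as pairs. DESeq2 left the member counts as they were, at 18 changed, and over all tested genes it called 3108 that rose and 3049 that fell. The scalings moved the median of all genes by less than 0.1. Genes under about 10 counts per library could not be compared at this depth.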
